A study of Rattus norvegicus with 3 samples.

Results

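The cell division genes are a list of genes whose products copy the DNA, drive the cell cycle or separate the chromosomes, described here in the parotid, submandibular and sublingual salivary glands of the rat. They were chosen by name: a probe belongs to the list if its gene name in the array files, without the endings for predicted or mapped genes, is one of 45 listed names, which stand for 43 genes because Cdk1 is listed under 3 names. Probes were found for 39 of these genes, out of 14456 named genes on the array, and 56 probes represent them. Aurka, Mki67, Mcm3 and Cdca3 had no probe under those names. Glands came from Wistar rats, all male, 10 weeks old and without treatment, and the labels describe them as normal. For each gland 500 ng of total RNA was labelled with the dye Cy3 and hybridised to 1 Agilent rat array. The design text mentions 3 rats, and whether an array holds RNA of 1 animal or a pool is not stated. There were therefore no replicates and no tests. Every value describes a single array, precision is limited by their number, and a gene counted as lower or higher differed by at least 2-fold.

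A dividing cell first switches on genes for DNA replication under E2F transcription factors, and later switches on genes for mitosis under FOXM1 and the MuvB complex, so that division genes tend to be expressed together in cycling cells. Cyclins switch on cyclin-dependent kinases (CDKs), the spindle checkpoint holds mitosis until chromosomes are attached, and the anaphase-promoting complex (APC/C) then marks cyclins and other proteins for destruction. In the salivary glands of adult rodents most secretory cells are not dividing, and cell replacement is slow. In RNA from a whole gland, fewer dividing cells and less RNA per dividing cell cannot be told apart.

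Promoters are shown because E2F and MuvB act through short motifs close to the gene's start, and these motifs were not used to choose the genes. Each sequence below runs 5′ to 3′ on the gene's own strand from 250 bases before to 50 bases after the start of the gene, from RefSeq with the build GRCr8. Capitals mark matches on either strand to an E2F motif (TTTCCCGC, TTTGGCGC, TTTCGCGC or TTTGCCGC), to the cell cycle genes homology region, CHR (TTTGAA or TTTAAA), and to the CCAAT box (CCAAT), the motif of the factor NF-Y. Bub1, Mcm2 and Kif23 had the largest mean differences from the parotid among genes measured on all 3 arrays with a promoter entry. Ccne1, Rrm1 and Ttk had the smallest. Differences of opposite sign cancel in this mean, and Rrm1 differed by 0.30 and -0.23. Cdk1 was added after the matches were seen, as the only gene of the list with all 3 kinds of motif.
Mcm2 (chr4:122918045-122918344, minus strand): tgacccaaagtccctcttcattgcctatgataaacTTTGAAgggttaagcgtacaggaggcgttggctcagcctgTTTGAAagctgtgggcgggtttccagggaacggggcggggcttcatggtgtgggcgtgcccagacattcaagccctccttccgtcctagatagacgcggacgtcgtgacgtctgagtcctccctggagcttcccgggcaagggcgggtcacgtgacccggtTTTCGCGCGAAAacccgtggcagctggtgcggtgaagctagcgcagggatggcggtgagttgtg
Bub1 (chr3:135504872-135505171, minus strand): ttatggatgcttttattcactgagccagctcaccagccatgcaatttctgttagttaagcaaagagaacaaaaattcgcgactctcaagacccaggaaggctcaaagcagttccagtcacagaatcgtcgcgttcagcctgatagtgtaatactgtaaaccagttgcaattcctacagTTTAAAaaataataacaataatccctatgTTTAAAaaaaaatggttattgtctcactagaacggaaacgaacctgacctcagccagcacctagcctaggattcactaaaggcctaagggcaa
Kif23 (chr8:71320535-71320834, minus strand): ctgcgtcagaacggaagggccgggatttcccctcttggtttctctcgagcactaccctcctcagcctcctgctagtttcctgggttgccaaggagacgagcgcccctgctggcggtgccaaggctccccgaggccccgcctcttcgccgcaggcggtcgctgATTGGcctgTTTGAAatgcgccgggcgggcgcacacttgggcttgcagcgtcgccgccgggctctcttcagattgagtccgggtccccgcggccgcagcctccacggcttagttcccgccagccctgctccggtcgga
Cdk1 (chr20:19265043-19265342, plus strand): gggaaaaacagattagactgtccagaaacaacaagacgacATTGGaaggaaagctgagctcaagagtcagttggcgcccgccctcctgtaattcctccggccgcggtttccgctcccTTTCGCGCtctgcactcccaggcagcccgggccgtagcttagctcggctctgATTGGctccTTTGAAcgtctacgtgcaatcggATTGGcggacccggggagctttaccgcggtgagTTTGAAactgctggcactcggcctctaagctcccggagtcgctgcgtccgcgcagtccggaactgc
Ccne1 (chr1:99927860-99928159, minus strand): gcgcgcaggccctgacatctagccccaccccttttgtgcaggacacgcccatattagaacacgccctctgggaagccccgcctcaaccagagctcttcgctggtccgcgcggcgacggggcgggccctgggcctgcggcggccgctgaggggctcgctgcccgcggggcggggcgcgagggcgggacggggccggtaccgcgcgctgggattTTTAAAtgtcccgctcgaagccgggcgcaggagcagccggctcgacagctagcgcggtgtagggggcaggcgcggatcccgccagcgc
Rrm1 (chr1:166235654-166235953, plus strand): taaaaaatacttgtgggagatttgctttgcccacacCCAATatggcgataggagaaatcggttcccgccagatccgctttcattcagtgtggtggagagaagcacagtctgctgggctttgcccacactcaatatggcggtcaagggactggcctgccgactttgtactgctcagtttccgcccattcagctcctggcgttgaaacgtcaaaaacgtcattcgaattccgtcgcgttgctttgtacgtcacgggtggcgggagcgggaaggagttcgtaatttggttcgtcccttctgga
Ttk (chr8:93634389-93634688, plus strand): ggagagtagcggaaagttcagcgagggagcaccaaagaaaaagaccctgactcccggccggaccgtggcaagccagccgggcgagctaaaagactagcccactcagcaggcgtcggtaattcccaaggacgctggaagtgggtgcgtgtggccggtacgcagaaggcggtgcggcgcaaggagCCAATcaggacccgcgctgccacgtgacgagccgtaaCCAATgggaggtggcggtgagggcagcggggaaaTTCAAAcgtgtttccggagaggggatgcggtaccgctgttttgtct

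Mcm2, a replication gene, held a run of E2F letters at -14, counted with 0 at the first base of the gene, where matches on both strands overlapped (TTTCGCGC and GCGCGAAA). It also held CHR matches at -215 and -175. Kif23, a mitotic gene, held a CCAAT box at -88 and a CHR at -79, and Bub1 held CHR matches at -72 and -43 with no CCAAT box. Cdk1 held an E2F motif at -133, CCAAT boxes at -210, -81 and -49 and CHR matches at -72 and -16. Ccne1 held 1 CHR, Rrm1 1 CCAAT box, and Ttk CCAAT boxes at -67 and -30 with a CHR at 4.

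Of the 39 genes, 29 had a promoter in the RefSeq table, and Mcm4, Cdc6, Rrm2, Ccne2, Ccna2, E2f1, Foxm1, Aurkb, Ube2c and Tpx2 had no entry. A CHR was found in 20 of 29 (69.0%), against 27.9% of all 27457 promoters of the same length. The CCAAT box was found in 23 (79.3%, against 37.7%) and an E2F motif in 6 (20.7%, against 2.3%). The GC box (GGGCGG on either strand), a general promoter motif, was found in 22 (75.9%, against 34.9%), so a motif that is not specific to the cell cycle also stood above its share in all promoters. The E2F matches were in Mcm2, Mcm5, Mcm6, Mcm7, Tyms and Cdk1, which is 4 of the 5 replication promoters available. CHR matches were in all 10 promoters of the chromosome, kinetochore, spindle and cytokinesis genes that had an entry and in all 4 of the mitotic kinase and checkpoint genes that had one. A match is a string of letters and not a measured binding site.

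**Figure D1:**
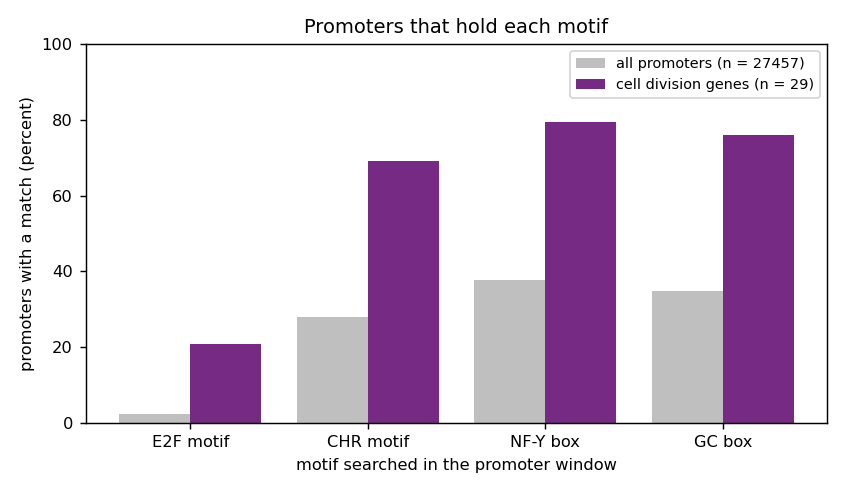
Share of promoters, in percent, that hold at least 1 match to each motif on either strand, for all 27457 RefSeq promoters (grey) and for the 29 cell division genes with an entry (purple). The NF-Y box is the CCAAT box; all 4 purple bars stand above the grey ones, from 20.7% against 2.3% for E2F to 79.3% against 37.7% for the NF-Y box.

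The motif counts were then set beside the expression values described below. Of the genes with a promoter entry, 12 passed 2-fold below the parotid on 1 or both of the other arrays, and 10 were compared and did not. A CHR was found in 9 of the 12 (75%) and in 5 of the 10 (50.0%). An E2F motif was found in 4 of the 12 (33.3%) and in 2 of the 10 (20.0%), and a CCAAT box in 9 (75%) and 8 (80.0%). With so few promoters these shares are a description only.

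On the arrays as a whole, 64.5% of named genes were well above background in the parotid, 62.9% in the submandibular-labelled and 63.9% in the sublingual sample, and no spot was saturated. Repeat spots of a probe on the same array had median SDs of 0.089, 0.080 and 0.086 on the log2 scale. Across 8507 genes the sublingual and submandibular-labelled arrays were more alike (r = 0.991, across genes, which are not independent replicates) than either was to the parotid (0.920 and 0.918). Of 6 products of the granular ducts that could be compared, which mark the submandibular gland of male rats, 0 were at least 2-fold higher on the array labelled submandibular than on the parotid array, so it is called submandibular-labelled throughout. Vcsa1, one of them, was well above background on this array only, at least 2.11-fold above the sublingual array. Mucous acinar markers (Muc19, Agr2 and Gcnt3) were well above background on both of these arrays and not on the parotid array.

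At least 1 probe was well above background for 29 of the 39 genes in the parotid (74.4%, against the 64.5% of all genes), for 23 in the submandibular-labelled sample (59.0%, against 62.9%) and for 25 in the sublingual sample (64.1%, against 63.9%). For each gene's brightest probe, signals well above background ran from 26.9 to 516 in the parotid and 25.9 to 659 in the submandibular-labelled sample. In the sublingual sample they ran from 32.4 to 817, and the medians were 84, 88 and 71.6 in this order.

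No gene of the list was detected on another array without being detected in the parotid. Mcm5, Cdc6, Rrm2 and Ccnb2 were well above background in the parotid only, which is 10.3% of the list against 3.49% of all genes. Bub1b and Birc5 were detected in the parotid and sublingual samples and not in the submandibular-labelled one (5.1%, against 1.43% of all genes). On all 3 arrays 23 genes were detected (59.0%, against 58.91%).

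The remaining 10 genes (25.6%, against 31.33% of all genes) were not well above background on any array. Their signals lay between 3.77 and 22.8, and no difference is given for them. They were Mcm4, a subunit of the replicative helicase, the thymidine kinase Tk1, Aurkb and Cdca8 of the chromosomal passenger complex, the centromere proteins Cenpe and Cenpf, and the spindle and midzone proteins Kif11, Nusap1, Prc1 and Tpx2. The probe named Tk1 lies on chromosome 3 of the array's build, rn4, while RefSeq places Tk1 on chromosome 10, so this probe may not stand for the gene. For 37 other genes the probe and the RefSeq gene lie on the same chromosome, and the Birc5 probe has no position in the files.

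**Figure D2:**
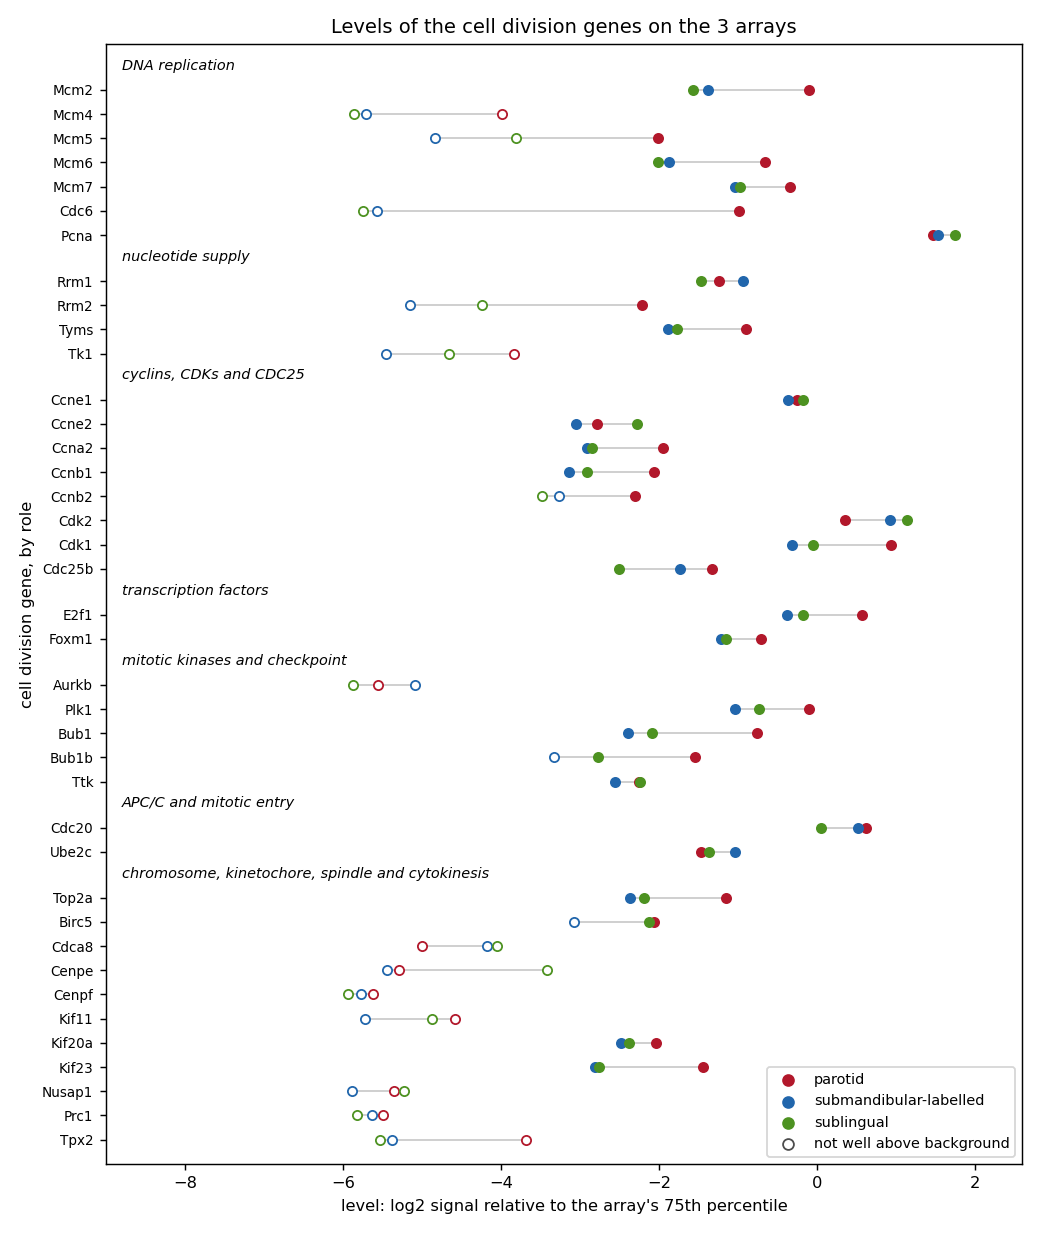
Level of each of the 39 genes on the 3 arrays, as log2 signal relative to the array's 75th percentile, grouped by role (red parotid, blue submandibular-labelled, green sublingual). Open circles are not well above background, and points are to be compared only along a row; Cdc6, Mcm5, Rrm2 and Ccnb2 have 1 filled circle each, in the parotid, and 10 genes have none.

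Levels are given below as log2 of the signal relative to each array's 75th percentile, and differences are differences of these levels. "At least" before the fold of a gene marks an approximate lower bound, used where the dimmer array had no signal well above background. The dim level was then the higher of its own and the lowest level of any probe well above background on that array. For Bub1b, Birc5 and Ccnb2 its own level was the higher. Their bounds are thus differences measured with a dim signal and not strict minimums. The scanner software's own error for a spot gave differences an error of 0.205 to 0.426 on the log2 scale over the genes measured on both arrays of a pair, and this does not include the spread between animals. Where a gene had several probes, the one with the highest mean level was used.

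Compared with the parotid, the cell division genes were mostly lower on both other arrays. In the submandibular-labelled sample 12 of the 29 genes compared were at least 2-fold lower (41.4%, against 11.1% of 9775 genes) and 0 were at least 2-fold higher (against 11.1%). The median difference was -0.96, against 0.10 for all genes, and 25 of 29 lay below 0 (86.2%, against 44.7%). In the sublingual sample 11 of 29 were at least 2-fold lower (37.9%, against 12.5% of 9777 genes), 0 were at least 2-fold higher (against 12.6%), the median was -0.85, against 0.055 for all genes, and 23 lay below 0 (79.3%, against 47.2%). Both comparisons share the parotid array and are not independent of each other.

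Some of these calls rest on detection in the parotid alone. A bound stood behind 5 of the 12 and 4 of the 11 genes, and a gene that was detected only in the parotid could differ in 1 direction only. Over the genes well above background on all 3 arrays, 7 were at least 2-fold lower in the submandibular-labelled sample and 6 in the sublingual sample, against 8.62% and 9.71% of all genes so detected. Among the 23 genes measured on all 3 arrays the parotid was the highest for 16 (69.6%, against 36.5% of 8507 genes), the sublingual for 5 and the submandibular-labelled for 2.

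The size of the difference depended on the background correction. With normexp correction, which adds 50 to each signal and so compresses dim probes by construction, 1 gene was at least 2-fold lower on each array (Cdc6, against 4.64% and 5.13% of all genes), with medians of -0.48 and -0.47. Centring each array on its median raised the median of all genes by 0.31 and 0.24, and 6 and 7 genes were then at least 2-fold lower (against 6.91% and 8.45%).

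**Figure D3:**
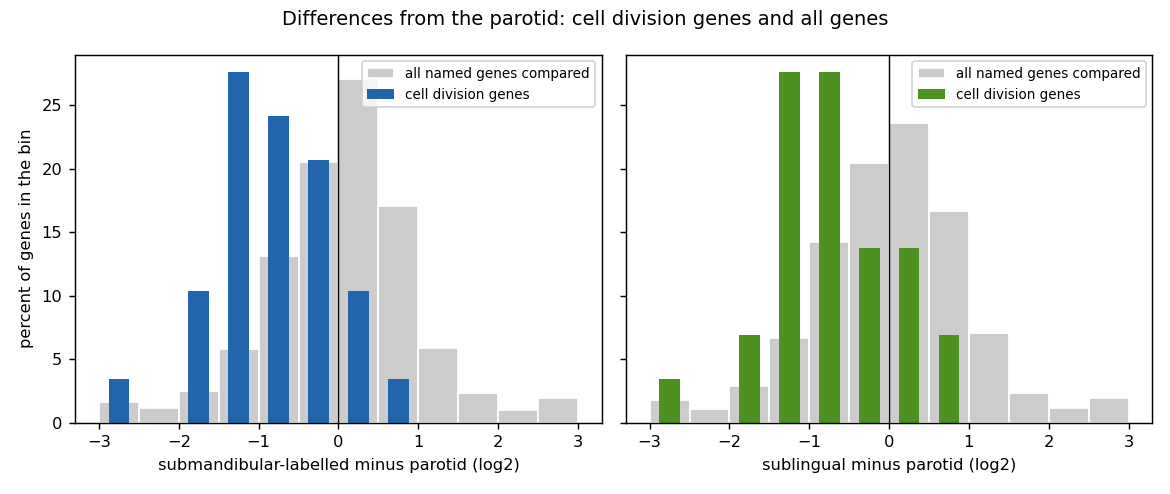
Percent of genes in bins 0.5 wide of the log2 difference from the parotid, for all named genes compared (grey) and for the 29 cell division genes compared (coloured), with bounds at their bound and the outermost bins holding everything beyond. The coloured bars are shifted to the left of 0, with medians of -0.96 and -0.85 against 0.10 and 0.055 for all genes, and none lies beyond 1.

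The same 9 genes were at least 2-fold lower on both arrays: Mcm2, Mcm5, Mcm6, Cdc6, Rrm2, Bub1, Bub1b, Top2a and Kif23. Ccnb1, Cdk1 and Birc5 passed 2-fold on the submandibular-labelled array only, and Ccnb2 and Cdc25b on the sublingual array only. The threshold splits near neighbours. For the submandibular-labelled array Birc5 was just inside (-1.02) and Tyms just outside (-0.99), and 5 genes lay between -0.8 and -1. For the sublingual array Top2a was just inside (-1.04) and Cdk1 just outside (-0.99), and 4 genes lay in that range. On both arrays 22 genes lay below 0 and 3 above 0 (Pcna, Cdk2 and Ube2c), and 4 had opposite signs (Rrm1, Ccne1, Ccne2 and Ttk). The shares of all genes in these overlaps were not computed. Both comparisons share the parotid array and the other arrays were alike (r = 0.991), so overlap alone does not single out the list.

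**Figure D4:**
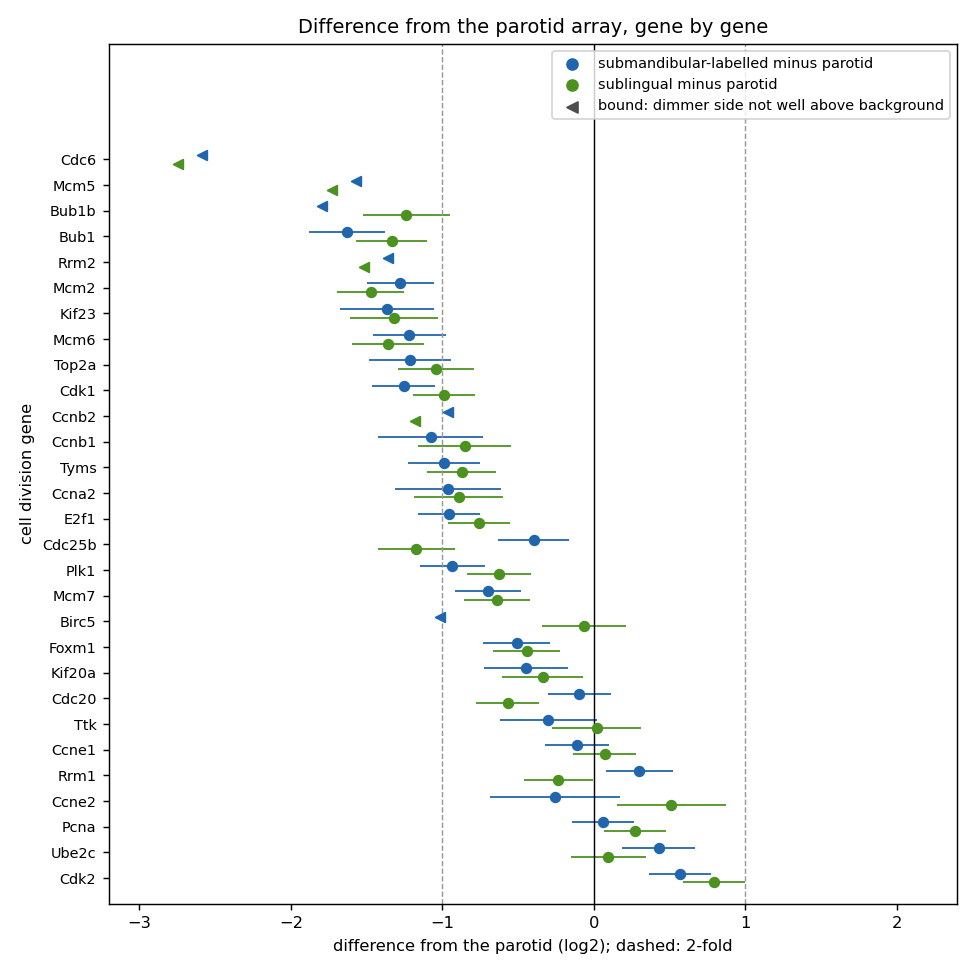
Log2 difference from the parotid for each of the 29 genes compared, submandibular-labelled (blue) and sublingual (green), ordered by the mean of both; bars are the scanner software's error of the difference, triangles are bounds, and dashed lines mark 2-fold. Cdc6 lies farthest to the left (-2.59 and -2.75 as bounds), and Cdk2 farthest to the right (0.57 and 0.79).

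Of the genes of DNA replication 6 could be compared, with medians of -1.25 and -1.42. On each array 4 of them were at least 2-fold lower (against 11.1% and 12.5% of all genes). Cdc6, which loads the replicative helicase onto origins, had a signal of 93.6 in the parotid, 4.79 in the submandibular-labelled and 4.55 in the sublingual sample (probe at chr10:87690604-87691212, rn4). Only the parotid signal was well above background. Its level was at least 6.01-fold above that of the submandibular-labelled and at least 6.71-fold above that of the sublingual sample. Cdc6 was the only gene of the list past 4-fold (against 2.80% and 2.90% of all genes at least 4-fold lower). It stayed past 2-fold in both comparisons under the 9 alternatives in which it could be compared, and it could not enter the one limited to genes above background on all 3 arrays.

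The helicase itself is a ring of the proteins Mcm2 to Mcm7. Mcm2 stood at a level of -0.10 in the parotid, -1.37 in the submandibular-labelled and -1.57 in the sublingual sample (chr4:122978797-122978856), so the parotid was 2.42-fold and 2.77-fold higher. Its other probe, also above background on all 3 arrays, gave differences of -0.99 and -1.27 from the parotid. Mcm6 stood at -0.66, -1.87 and -2.01 in the same order (chr13:41052148-41052207), 2.33-fold and 2.56-fold higher in the parotid.

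Mcm5 was detected in the parotid only, with signals of 46.2, 7.96 and 17.4, which gave folds of at least 2.97 and at least 3.31. Mcm7 differed less, at -0.34, -1.04 and -0.98, which is 1.62-fold and 1.56-fold. The subunits thus ran in the same direction where they could be measured, and their folds were of unequal size. Pcna, the sliding clamp of the DNA polymerases, did not follow them: it stood at 1.47, 1.53 and 1.74, with differences of 0.06 and 0.27 from the parotid, and the first of these changed sign with quantile normalization and with the median of its probes.

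Among the genes of nucleotide supply, the subunits of ribonucleotide reductase, which makes deoxynucleotides, gave unlike values. Rrm2, the subunit that is made mainly in dividing cells, was detected in the parotid only, with signals of 39.9, 6.43 and 12.9, which is at least 2.56-fold and at least 2.86-fold. A second Rrm2 probe was not well above background on any array and lay in the other direction, with signals of 7.99, 14.6 and 24.1. Rrm1, the large subunit, stood at -1.24, -0.94 and -1.47 and differed by 0.30 and -0.23. A second Rrm1 probe, not above background in the sublingual sample, and another, dim on all arrays, gave values below the parotid. The sign for the submandibular-labelled array turned with the median of its probes, and for the sublingual array with median centring.

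Tyms, thymidylate synthase, stood at -0.90, -1.89 and -1.77, with the parotid 1.99-fold and 1.83-fold higher. It fell just short of 2-fold on both arrays.

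Of the 8 cyclins, CDKs and CDC25 genes, all were compared, with medians of -0.68 and -0.87. On each array 2 of them were at least 2-fold lower (against 11.1% and 12.5% of all genes). The E cyclins, which act at entry into S phase, differed little: Ccne1 stood at -0.25, -0.37 and -0.18. Ccne2 stood at -2.79, -3.05 and -2.28, with differences of -0.26 and 0.51, and changed sign under some alternatives in both comparisons, as did Ccne1 for the submandibular-labelled array. Cdk2, their kinase, was highest in the sublingual sample by its brightest probe, at 0.35, 0.92 and 1.14. Its differences from the parotid were 0.57 and 0.79, and their signs held under every alternative. A second Cdk2 probe gave 0.28 and 0.04 and was highest in the submandibular-labelled sample.

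Cdk1, the kinase that drives mitosis, ran the other way. It stood at 0.94 in the parotid, -0.32 in the submandibular-labelled and -0.05 in the sublingual sample (chr20:20043755-20043814), 2.39-fold and 1.99-fold higher in the parotid. Its partners, the B cyclins, were also highest in the parotid. Ccnb1, cyclin B1, stood at -2.06, -3.14 and -2.91 (2.11-fold and 1.81-fold), and Ccnb2 had signals of 37.7, 23.7 and 21.8, above background in the parotid only (at least 1.95-fold and at least 2.27-fold).

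Ccna2, cyclin A2, which acts in S phase and at entry into mitosis, stood at -1.95, -2.92 and -2.84, 1.95-fold and 1.86-fold higher in the parotid. Cdc25b, a phosphatase that activates CDKs, stood at -1.33, -1.73 and -2.50. The parotid was 1.32-fold higher than the submandibular-labelled and 2.25-fold higher than the sublingual sample.

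Both transcription factors were lower outside the parotid by less than 2-fold. E2f1 stood at 0.57, -0.38 and -0.18, which is 1.94-fold and 1.69-fold. Foxm1 stood at -0.71, -1.22 and -1.15, which is 1.42-fold and 1.36-fold. These values are transcript levels and do not give the activity of either factor.

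Of the mitotic kinases and checkpoint genes, 4 could be compared. On each array 2 of them were at least 2-fold lower (against 11.1% and 12.5% of all genes). Bub1, a checkpoint kinase at the kinetochore, stood at -0.76 in the parotid, -2.39 in the submandibular-labelled and -2.09 in the sublingual sample (chr3:115324635-115324694), 3.09-fold and 2.52-fold higher in the parotid. This was the widest gap to the submandibular-labelled array among genes measured on all 3 arrays. Bub1b, the checkpoint protein BubR1, had signals of 64, 22.6 and 35.6, at least 3.47-fold and 2.36-fold higher in the parotid. A second Bub1b probe was above background in the parotid only, and another was dim on all arrays. With the median of its probes the differences were -0.76, short of 2-fold, and -2.25.

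Plk1, a kinase with several tasks in mitosis, stood at -0.10, -1.04 and -0.73, with the parotid 1.91-fold and 1.54-fold higher. Its second probe gave differences of -0.72 and -0.98. Ttk, the kinase that starts the spindle checkpoint, stood at -2.25, -2.55 and -2.24 and differed by -0.30 and 0.02, both within the scanner's error of 0.32 and 0.29.

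Both genes that act with the APC/C were detected on all 3 arrays. Cdc20, which activates the complex, stood at 0.62, 0.52 and 0.05, with differences of -0.10 and -0.57. Ube2c, its ubiquitin-conjugating enzyme, stood at -1.47, -1.04 and -1.37, with differences of 0.43 and 0.10. Neither passed 2-fold on either array.

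Among the genes of chromosomes, spindle and cytokinesis, 4 of 11 were detected on any array. Of all genes, 31.33% were detected on no array. Top2a, the topoisomerase that untangles chromosomes, stood at -1.15, -2.36 and -2.19, 2.32-fold and 2.06-fold higher in the parotid. Kif23, a motor of the central spindle needed for cytokinesis, stood at -1.44, -2.81 and -2.76 (chr8:66052647-66052706), 2.58-fold and 2.5-fold higher. Both had all 3 signals above background, and the other arrays lay closer to each other than to the parotid.

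Birc5, survivin of the chromosomal passenger complex, had signals of 44.7, 27.1 and 56.1, and that of the submandibular-labelled sample was not well above background. The parotid was at least 2.02-fold higher than the submandibular-labelled sample and 1.05-fold higher than the sublingual sample. Kif20a, another motor of the central spindle, differed little, at -2.04, -2.49 and -2.38.

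Between the sublingual and submandibular-labelled arrays the cell division genes differed little, as did most genes. Of 25 compared, 0 were at least 2-fold higher in the sublingual sample (against 0.895% of 9389 genes) and 0 at least 2-fold lower (against 0.575%). The median was 0.17, against -0.05 for all genes. Of the 25 genes, 19 lay above 0 and 6 below (24.0%, against 55.5% of all genes below 0). The range ran from -0.77 for Cdc25b to 0.95 for Birc5, which is a bound, and of the 23 genes measured on both arrays 4 differed by more than 2 scanner errors. Against the parotid, 14 of 23 and 17 of 25 did so. The share of all genes past 2 scanner errors was not computed.

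Other genes of cell division were taken from 8 lists, with 106 genes on the array. These include 12 CDK inhibitors and quiescence genes, which hold cells out of the cycle, so the pooled values mix both kinds. Of 88 compared, 14 were at least 2-fold lower on each array (15.9%, against 11.1% and 12.5% of all genes) and 5 and 9 were at least 2-fold higher (5.7% and 10.2%, against 11.1% and 12.6%). Their medians were -0.02 and -0.09, against 0.10 and 0.055 for all genes. Of 10 genes of the G2 and DNA damage checkpoint, 3 and 2 were at least 2-fold lower and 0 higher, with medians of -0.45 and -0.23. In the list of origin licensing and the replication fork 4 of 27 were at least 2-fold lower in the submandibular-labelled and 5 of 27 in the sublingual sample, and 0 and 3 were at least 2-fold higher, with medians of -0.43 and -0.21. Chaf1b, which places histones on new DNA, was 3.49-fold and 3.26-fold higher in the parotid. Gmnn, geminin, which blocks a further round of licensing, was 1.91-fold and 2.76-fold lower in the parotid.

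Genes that hold cells out of the cycle were not lower as a group outside the parotid. Of 11 CDK inhibitors and quiescence genes compared, 1 and 2 were at least 2-fold higher, 0 and 1 lower, with medians of 0.145 and 0.39. For the lists in this paragraph, the shares over all genes are 11.1% and 12.6% at least 2-fold higher and 11.1% and 12.5% lower. Cdkn1c, the CDK inhibitor p57, was 6.16-fold higher in the submandibular-labelled and 5.89-fold higher in the sublingual sample than in the parotid. Of the D cyclins and their kinases Ccnd1 was 2.16-fold and 1.66-fold higher outside the parotid, and Cdk6 was detected in the parotid only. Of the 11 APC/C genes compared, 0 differed by 2-fold in either comparison. Of 6 E2F, MuvB and MYB genes with a probe, E2f6 alone was detected, 1.995-fold and 2.61-fold higher in the parotid.

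The kinetochore, condensin and spindle list held large values in both directions. Of 20 compared, 5 and 4 were at least 2-fold lower (against 11.1% and 12.5% of all genes). At least 2-fold higher were 2 and 3 (against 11.1% and 12.6%). Espl1, separase, which cuts the ring that holds sister chromatids together, was 5.38-fold and 6.48-fold higher in the parotid. The single probe named Kntc1, a kinetochore protein, was 205-fold and 244-fold higher outside the parotid, the largest difference in the 8 lists, and no second probe was there to check it. In the cytokinesis list Rhoa, a small GTPase with many other tasks, was 6.11-fold and 15.5-fold higher outside the parotid.

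**Figure D5:**
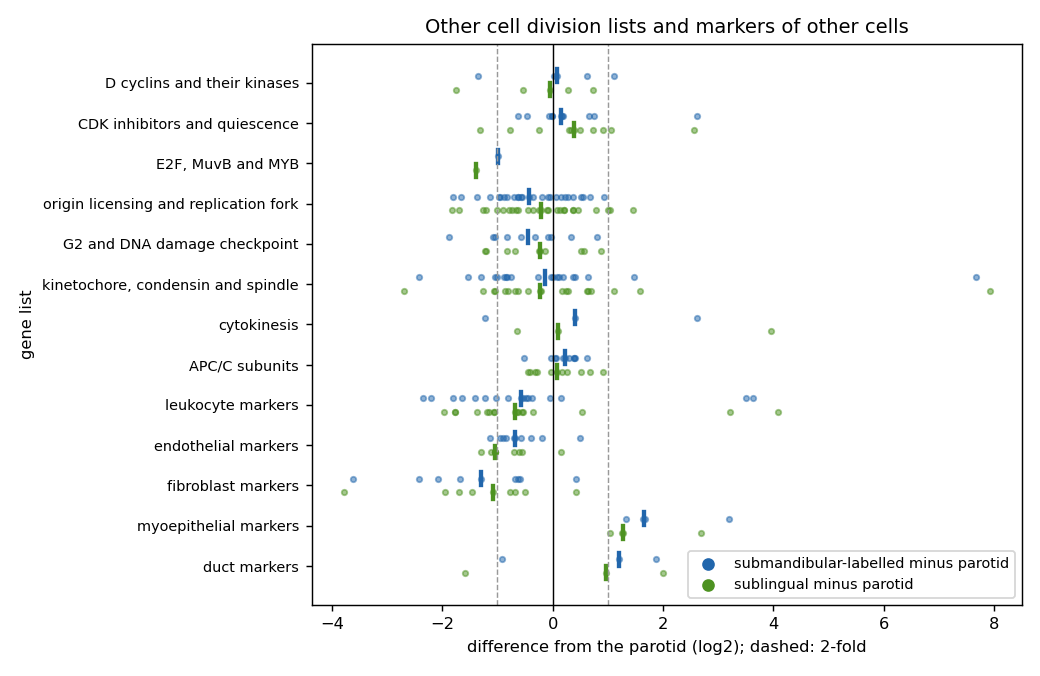
Log2 difference from the parotid for each gene compared (points) of 8 further cell division lists and of markers of other cells, with the list's median as a vertical bar; blue is submandibular-labelled and green sublingual. Medians of the division lists lie between -0.45 and 0.41 apart from the list with 1 gene compared, and those of the leukocyte, endothelial and fibroblast lists lie below 0.

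Markers of other cells of the gland also differed between the arrays. For these lists, too, the shares over all genes are 11.1% and 12.5% at least 2-fold lower and 11.1% and 12.6% at least 2-fold higher. Of 17 leukocyte markers compared, 7 were at least 2-fold lower in the submandibular-labelled and 8 in the sublingual sample, and Cd14 and Cd52 were at least 2-fold higher on each. Their summed level was 7.42 in the parotid, 6.96 in the submandibular-labelled and 6.87 in the sublingual sample on the log2 scale. The T cell genes Cd3d, Cd3g and Cd8b were detected on all 3 arrays. They were 2.04-fold, 5.10-fold and 3.13-fold higher in the parotid than in the submandibular-labelled sample. The T cell genes Cd3e and Cd4 and the B cell genes Cd79b and Ms4a1 were not well above background on any array.

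Of 9 fibroblast markers 5 were at least 2-fold lower on each array, with summed levels of 7.69, 6.13 and 6.35. Of 10 endothelial markers 1 and 6 were at least 2-fold lower, with summed levels of 4.43, 3.62 and 3.76. All 4 myoepithelial markers were at least 2-fold higher on both arrays, with summed levels of 3.17, 4.89 and 4.55. These lists differed between the same arrays as the cell division genes, and their part in the result was not tested.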

How the data were processed

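RNA from 1 sample per gland was measured on 3 one-colour arrays. The deposited intensity values are the processed signals of Agilent Feature Extraction 10.1.1.1 (protocol GE1-v5_10_Apr08, array design 014879, coordinates in rn4), per the file headers, and the deposited flags mark spots well above background, saturated spots and outliers. The authors' value table gives each spot as a linear ratio, which matched the processed signal over a constant for the array (190.1, 236 and 250). Its medians are 0.152, 0.122 and 0.128, with no centring of genes, and how the constants were chosen is not given in the sources used.

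Control spots were dropped, as were outlier spots (68, 79 and 73), and a probe's repeat spots were averaged as log2 values. Each array's 75th percentile was subtracted. A gene was represented by its probe with the highest mean level. For a dim side, the level used was the higher of its own and the lowest level of probes well above background (-3.43, -3.58 and -3.74). Genes dim on both sides were not compared. Of the marker lists, 1 gene is not reported here. Of the list, every gene with a probe is named. Of the other division lists the 3 genes with the largest differences in each, and any at least 4-fold apart, could be named. Cdk6, the marker genes and the granular duct list were chosen after values were seen.

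The members, lists and thresholds were chosen with earlier results of these data known. The arrays shared 1 slide and 1 scan, and gland cannot be told apart from place on that slide. Alternatives were other scalings, normexp (limma 3.58.1, R 4.3.3), the value table, other filters, folds and name matches. No annotation of rn4 was used here, so the place of probes within genes was not analysed here. The steps were tested on simulated data and run with matplotlib 3.10.9, pandas 2.3.3, numpy 2.4.6 and Python 3.11.15.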

Additional observations from a re-analysis of the deposited data

Results flagged for a closer look

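Some listed genes have probes under other names that the choice by name left out, and these gave signals well above background. A probe for Mcm3, a helicase subunit, had signals of 111 in the parotid, 87 in the submandibular-labelled and 85.3 in the sublingual sample, differences of -0.65 and -0.77 from the parotid. A probe for Mki67, the antigen Ki-67 that marks cycling cells, had signals of 273, 156 and 196, differences of -1.10 and -0.87, and a second Mki67 probe had signals of 27.7, 18.4 and 17.1, of which only the parotid's was well above background. A probe for Aurka, Aurora kinase A, listed under the older name Stk6, ran the other way, with signals of 43.9, 81.7 and 66.6 and differences of 0.60 and 0.21. No probe for Cdca3 was found under another name.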

How the results depend on the processing

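The median difference of the cell division genes from the parotid kept its sign under every alternative run. For the submandibular-labelled array it was -0.65 with median centring, -0.75 with quantile normalization, -0.48 with normexp correction, -0.83 with the median of a gene's probes and -0.70 over genes above background on all 3 arrays. For the sublingual array it was -0.61, -0.71 and -0.47 under these 3 scalings and corrections, and -0.64 both over genes above background on all 3 arrays and with no filter on dim probes. The 12 genes called lower in the submandibular-labelled sample became 6 with median centring, 1 with normexp, 7 above background on all arrays and 1 at 4-fold. The 11 on the sublingual array became 7, 1, 6 and 1. At 1.5-fold 18 of 29 genes were lower on each of these arrays, against 21.2% and 23.8% of all genes. The 0 genes called higher in the sublingual sample than in the parotid became 1 with median centring and 1 at 1.5-fold (against 19.2% and 25.5%). Between the sublingual and submandibular-labelled arrays 2 were higher and 1 lower at 1.5-fold (against 5.92% and 4.79%). No called gene changed sign; 6 and 5 genes that were not called did, under at least 1 alternative. Normexp adds 50 to each signal, which by itself draws dim signals together; for the other settings the cause was not tested. Signal over background limits what can be measured. On no array were 10 of 39 genes well above background (25.6%, against 31.33% of all genes). No paired analysis was possible because each gland has 1 array.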
